A study of Mus musculus with 12 samples.

Results

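Engagement of the T cell receptor (TCR) raises a small set of transcription factor genes within hours, and 9 of them were followed here in CD4 T cells sorted from mouse kidneys. They are the 3 orphan nuclear receptors Nr4a1, Nr4a2 and Nr4a3, the 3 zinc finger factors Egr1, Egr2 and Egr3, the interferon regulatory factor Irf4, the calcineurin-controlled factor Nfatc1, and Myc. The set is defined by gene symbol and was chosen with earlier results of these data known. The members are 9 of the 52632 genes in the table, and all 9 passed the filter (mean over the libraries 1 FPKM or more) that left 19288 genes for the tests.

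The TCR reaches these genes by several routes. Calcium entry activates the phosphatase calcineurin, which sends NFAT proteins to the nucleus, and NFATC1 is itself an NFAT target through its inducible promoter. RAS and ERK kinases act through serum response factor and its ELK partners on the EGR genes, and NR4A genes respond to calcium, cAMP and CREB-type factors. NR4A1 to NR4A3 and EGR2 with EGR3 are known for restraining T cells and for the tolerant or exhausted state, IRF4 scales effector differentiation with TCR signal strength, and MYC drives growth and metabolism after activation.

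The libraries fell into 4 groups of 3. KO IRI and WT IRI cells came from mice whose renal pedicles on both sides were clamped for 30 min, with harvest at 24 h of reperfusion (ischemia-reperfusion injury, IRI). KO control and WT control cells came from separate mice of the same genotypes, and the labels do not say whether these had sham surgery. KO mice are labelled CD4 Keap1 KO and were generated in house, whereas WT mice were purchased, both with C57BL6/J as labelled background, so genotype and origin of the mice cannot be told apart. The labels name neither the Cre driver nor the deleted part of Keap1, whose product holds the factor NRF2 low. They also do not say whether libraries of a group are separate animals, and a p-value here therefore reflects only how much these samples spread, which may be technical.

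Values are FPKM (fragments scaled for transcript length and library size), which are per length and can be compared between genes, but carry no depth. Keap1 RNA had 6.28, 5.95 and 4.59 FPKM in KO IRI libraries and 6.61, 5.75 and 7.77 FPKM in KO controls, against 8.80, 6.31 and 6.03 FPKM in WT IRI libraries and 8.50, 9.00 and 9.87 FPKM in WT controls. It was lower in KO by 0.34 ± 0.13 on the log2 scale without passing the test (limma adjusted p = 0.0945), and passed after the rescaling described next (log2 difference -0.61 ± 0.11, adjusted p = 0.0484). Summed FPKM per library ran between 739969 and 2089551. The median tested gene was higher in KO than in WT libraries by 0.29 on the log2 scale, and 0.04 after each library was divided by its median ratio to the average library (called rescaled below). T cell markers including Cd3e and Cd4 were present in all 12 libraries.

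Promoter sequences were available from RefSeq (build GRCm38.p6) for 5 of the 9 genes, Nr4a1, Nr4a2, Nr4a3, Egr2 and Irf4. The 250 bases before the annotated start of the 3 NR4A genes are shown because they share a feature, and that of Irf4 is shown because it lacks it. Capitals mark TGACG on either strand (printed as TGACG or CGTCA), the core of the cAMP response element (CRE) bound by CREB-type factors. The NR4A windows lie at chr15:101266596-101266845 on the plus strand, chr2:57124004-57124253 on the minus strand and chr4:48045055-48045304 on the plus strand, and the Irf4 window at chr13:30748983-30749232 on the plus strand. The RefSeq starts used can differ from the GENCODE gene spans given below. The Nr4a1 window lies within its span, and those of Nr4a3 and Irf4 end within theirs.
Nr4a1: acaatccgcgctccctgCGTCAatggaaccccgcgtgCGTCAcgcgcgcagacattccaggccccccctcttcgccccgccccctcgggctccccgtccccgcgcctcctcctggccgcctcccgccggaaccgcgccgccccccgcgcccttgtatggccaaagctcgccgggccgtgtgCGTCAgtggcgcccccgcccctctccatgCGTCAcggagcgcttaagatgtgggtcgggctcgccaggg
Nr4a2: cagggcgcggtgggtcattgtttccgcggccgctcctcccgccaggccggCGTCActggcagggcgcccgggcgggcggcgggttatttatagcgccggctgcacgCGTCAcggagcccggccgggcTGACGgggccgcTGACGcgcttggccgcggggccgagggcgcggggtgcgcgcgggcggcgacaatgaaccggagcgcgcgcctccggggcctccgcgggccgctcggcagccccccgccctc
Nr4a3: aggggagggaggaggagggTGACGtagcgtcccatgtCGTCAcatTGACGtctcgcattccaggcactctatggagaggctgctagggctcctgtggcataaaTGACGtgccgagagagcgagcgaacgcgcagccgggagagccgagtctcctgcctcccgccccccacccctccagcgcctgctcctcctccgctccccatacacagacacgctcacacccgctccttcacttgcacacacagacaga
Irf4: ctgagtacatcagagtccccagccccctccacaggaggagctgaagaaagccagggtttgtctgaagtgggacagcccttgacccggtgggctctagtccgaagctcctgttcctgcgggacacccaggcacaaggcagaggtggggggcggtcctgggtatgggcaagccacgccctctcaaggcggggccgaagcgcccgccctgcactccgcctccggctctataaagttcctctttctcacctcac
Each NR4A window held 4 copies of TGACG and the Irf4 window held 0. Of 32851 mouse promoter windows of the same length, 17.8% held at least 1 copy and 0.137% held 4 or more. The palindrome TGACGTCA, in 1.55% of windows, was in none of the 4. The EGR site GCGNGGGCG, in 4.7% of windows, occurred once each in the windows of Nr4a1 and Nr4a2. The NFAT core GGAAA, in 55.6% of windows, occurred once in that of Nr4a2, and the NR4A monomer site AAAGGTCA, in 1.34%, was in none of the 4. Both strands were searched for each motif, TGACGTCA also counts as 2 copies of TGACG, and a CArG box, which reads alike on both strands, counts once. Egr2 has 5 annotated starts whose windows partly overlap. Of these, 4 held 1 CArG box each, the site of serum response factor found in 1.47% of all windows. In 3 of the 4, whose windows largely overlap, it is the same box in the genome. Those 3 also hold the same 2 copies of TGACG. A match is a run of letters and not a shown binding site.

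The 9 genes spanned a wide range of levels. In KO IRI libraries Egr1 was highest, with 120.0 ± 19.2 FPKM, followed by Nr4a1 with 117 ± 36.8, Nr4a3 with 77.1 ± 3.68, Nfatc1 with 48.3 ± 7.74, Nr4a2 with 28 ± 13.0, Myc with 13.2 ± 4.01, Irf4 with 7.19 ± 3.1, Egr2 with 4.87 ± 0.396 and Egr3 with 4.33 ± 0.841 (mean ± SD, n = 3). Neighbours in that order were separate only between Nr4a3 and Nfatc1 and between Nfatc1 and Nr4a2. In KO controls the order was Egr1, Nr4a1, Nfatc1, Nr4a3, Nr4a2, Myc, Irf4, Egr2 and Egr3, with Nr4a2 separate from the genes on either side of it. In WT IRI libraries Irf4 came last, at 2.78 ± 0.521 FPKM, although its libraries overlapped those of Egr2, the next in order. In WT controls neighbours among the 5 leading genes, Egr1, Nfatc1, Nr4a1, Nr4a3 and Nr4a2, overlapped, with means between 41.4 and 63.9 FPKM. Nr4a2 was separate there from Myc, the next in order. Against all tested genes of the same library, Egr1 stood between the 92.9th and the 97.7th percentile and Irf4 between the 31.4th and the 73.8th.

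**Figure D1:**
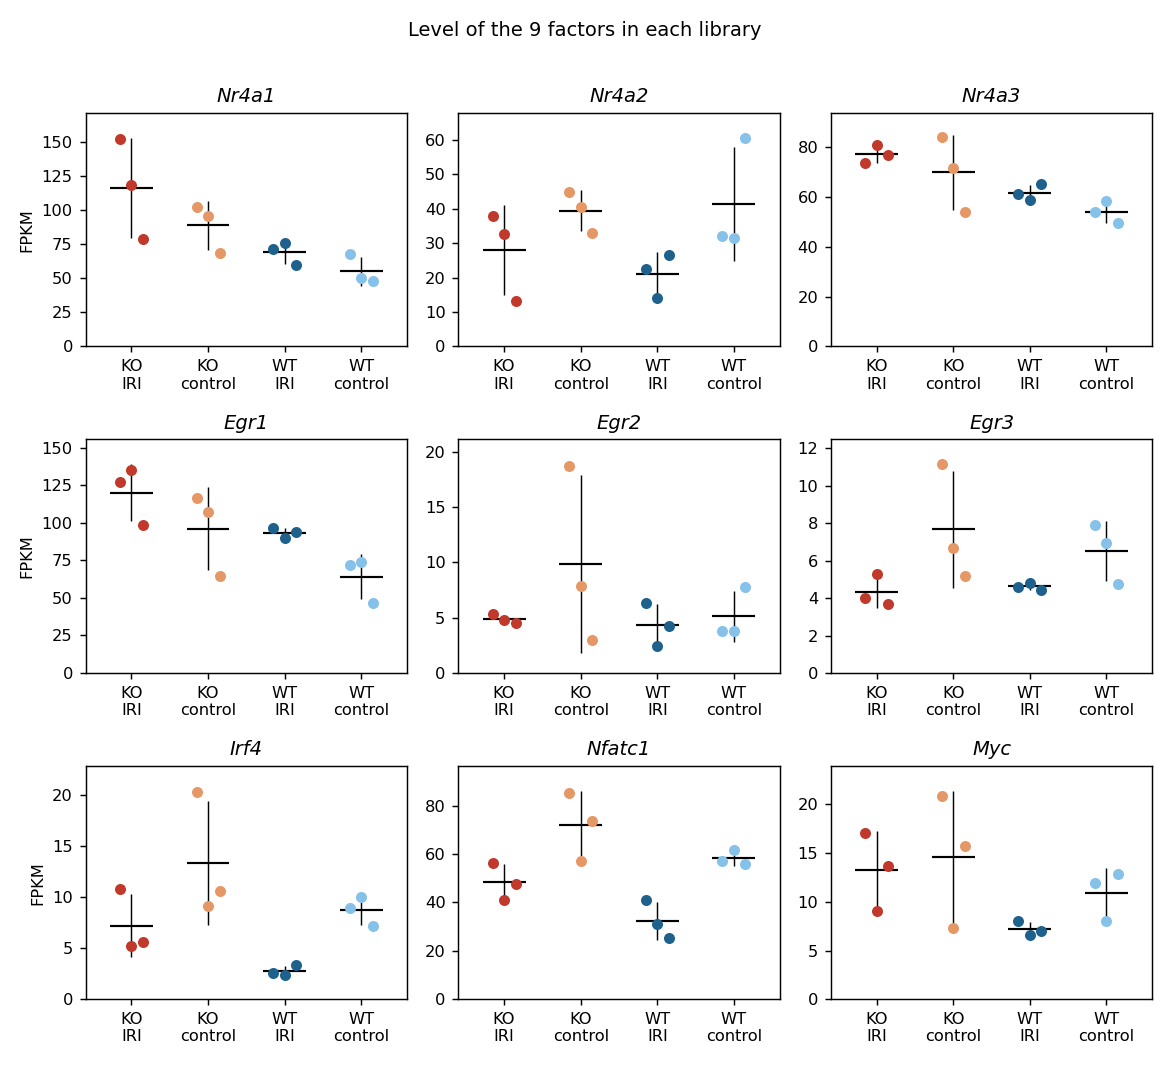
Level of each of the 9 genes in FPKM (vertical axis, starting at 0 and differing between panels) in the 12 libraries, by group. Points are libraries, horizontal bars group means and vertical lines 1 SD (n = 3). Irf4 and Nfatc1 points of WT IRI libraries all lie below those of WT controls, and Egr1 points all lie above them.

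After injury the 9 genes did not move as a block. Averaged over genotype, Irf4 and Nfatc1 fell, by 1.07 ± 0.22 and 0.70 ± 0.15 on the log2 scale, and the other 7 did not pass the test. Egr1, Nr4a1 and Nr4a3 had positive differences of 0.46, 0.34 and 0.18 (-0.03 for Nr4a3 with every library set to a common sum, which moves the median of all genes to -0.15), and Nr4a2, Egr2, Egr3 and Myc had negative ones between -0.76 and -0.29 (0.14 for Egr2 with array weights). Of all tested genes 6.03% fell and 9.04% changed in either direction in this comparison, against 2 of the 9, and 7.33% fell rescaled. The median difference of the 9 genes was -0.41, beside 0.00 for all tested genes. The test is limma on log2(FPKM + 1) over all 12 libraries with Benjamini-Hochberg adjustment, errors of differences are standard errors, and a difference on this scale understates the change of a gene with low values.

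Irf4, an IRF family factor that pairs with BATF and JUN on composite sites, is encoded on chromosome 13 from 30749226 to 30766976. It had 10.8, 5.22 and 5.59 FPKM in KO IRI libraries, against 20.2, 9.12 and 10.6 FPKM in KO controls. It had 2.61, 2.35 and 3.36 FPKM in WT IRI libraries, against 8.95, 9.97 and 7.16 FPKM in WT controls. In WT every injured library lay below every control, as for 14.4% of tested genes, and in KO the groups overlapped through KO IRI 1, the highest of its group. The fall passed averaged over genotype (adjusted p = 0.0140; rescaled log2 difference -1.0 ± 0.20, adjusted p = 0.00858), and did so under all 24 alternative settings, with adjusted p between 0.0013 and 0.0461. Within WT the log2 difference was -1.36 ± 0.31 (adjusted p = 0.0405; rescaled 0.0195), in a comparison in which 2.59% of tested genes fell as deposited and 4.68% rescaled. That call was lost in 9 of 12 fits that left out 1 library, those without any of the 6 WT libraries, KO IRI 2, KO IRI 3 or KO control 3, with adjusted p up to 0.147. Within KO the difference was -0.79 ± 0.31 and did not pass (adjusted p = 0.293), where 0.866% of tested genes were called, and no Irf4 difference between genotypes in the response to injury was called (interaction 0.57 ± 0.44, adjusted p = 0.999).

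Nfatc1, the NFAT family member whose short isoform accumulates during activation, lies on chromosome 18 from 80606205 to 80713071. It had 56.4, 40.9 and 47.5 FPKM in KO IRI libraries, against 85.2, 57.0 and 73.7 FPKM in KO controls. It had 40.8, 31.0 and 25.5 FPKM in WT IRI libraries, against 57.0, 61.8 and 55.8 FPKM in WT controls. Injured and control libraries were separate in both genotypes, each time with the injured ones lower, which held for 9.15% of tested genes in KO and 14.4% in WT. The averaged fall passed as deposited (adjusted p = 0.0169) and rescaled (-0.62 ± 0.09, adjusted p = 0.00162). Within WT the difference of -0.85 ± 0.21 missed the threshold as deposited (adjusted p = 0.0585) and passed rescaled (-0.79 ± 0.13, adjusted p = 0.00562). Within KO it was -0.56 ± 0.21 (adjusted p = 0.275), and no Nfatc1 interaction was called (0.29 ± 0.30, adjusted p = 0.999). Leaving out KO control 1, WT IRI 3 and WT control 3 together ended the averaged call, at -0.58 with adjusted p = 0.0796.

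T cell markers fell in the same libraries. The summed FPKM of 10 T cell markers was 1088 to 1520.1 in KO IRI libraries against 1695 to 2492 in KO controls, and 574 to 631 in WT IRI libraries against 1331 to 1515 in WT controls. Of the 10 markers, 6 fell with injury averaged over genotype and 0 rose, with a median log2 difference of -0.85, between those of Irf4 and Nfatc1. In bulk samples, fewer cells of a type and less RNA per cell cannot be told apart. Per 1000 FPKM of these markers, Irf4 stood at 4.51 to 7.08 in KO IRI libraries against 4.24 to 8.2 in KO controls, and at 3.99 to 5.85 in WT IRI libraries against 4.72 to 6.89 in WT controls. The Irf4 ranges overlapped in both genotypes on that scale. Nfatc1 stood at 37.1 to 38.3 in KO IRI libraries against 29.6 to 34.5 in KO controls, and at 44.4 to 64.7 in WT IRI libraries against 36.8 to 42.8 in WT controls. On that scale Nfatc1 was higher, not lower, in every injured library than in every control of its genotype, as were 37.2% of all tested genes. How far the marker change bears on the falls was not tested.

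B cell and plasma cell markers, whose cells express Irf4 strongly, also differed between groups. Their sum over 10 genes was 63.2 to 178 FPKM in KO IRI libraries against 339 to 1714 in KO controls, and 41.2 to 63.7 in WT IRI libraries against 121 to 219 in WT controls, and 5 of 8 tested genes fell with injury and 0 rose. KO control 1 held both the highest sum and the highest Irf4 level. Dendritic cell markers, another Irf4-expressing lineage, summed to 58.7 to 93.1 FPKM in KO IRI libraries against 223 to 544 in KO controls, and to 49.0 to 79.1 in WT IRI libraries against 110 to 188 in WT controls. That sum is mostly H2-Ab1, an MHC class II gene that B cells also make (501 of 544 FPKM in KO control 1). Of the 8 dendritic cell markers 3 fell and 0 rose, and Zbtb46 had 3.74, 2.22 and 2.26 FPKM in KO IRI libraries against 1.43, 1.84 and 1.27 FPKM in KO controls. Macrophage and monocyte markers summed to 87.4 to 202 FPKM in KO IRI libraries against 217 to 414 in KO controls, and to 109 to 118 in WT IRI libraries against 138 to 217 in WT controls. In WT, Ccr2 gave 20.3, 15.4 and 18.1 FPKM of the IRI sums and 52.2, 56.3 and 60.2 FPKM of the control sums. Lyz2 overlapped there, with 20.4, 21.1 and 42.0 FPKM in WT IRI libraries against 54.5, 19.7 and 18.9 FPKM in WT controls. Within WT 1 of the 10 markers fell and 0 rose. CD8 T and NK cell markers summed to 8.76 to 11.5 FPKM in KO IRI libraries against 24.8 to 37.2 in KO controls, and to 14.5 to 16.5 in WT IRI libraries against 24.6 to 28.1 in WT controls, and 4 of 6 tested fell and 0 rose. Of 8 neutrophil markers 4 rose and 1 fell (median log2 difference 0.82), with sums of 5.22 to 38.7 FPKM in KO IRI libraries against 12.8 to 16.7 in KO controls, and 21.9 to 45.7 in WT IRI libraries against 18.9 to 23.9 in WT controls. Markers of endothelium and fibroblasts summed to at most 52.1 FPKM, in KO control 3, of which Pecam1 was 51.7 FPKM. Those of kidney tubule ran from 0.711 in KO control 1 to 575 in KO IRI 3. Mzb1 was listed at 0 in 1 library, and no other marker of the B cell, dendritic cell and macrophage lists was listed at 0 in any library. Their part in the Irf4 difference was not tested. Without KO control 1 the averaged Irf4 difference was -0.91 (limma adjusted p = 0.0249). The B cell and plasma cell sums of KO control 2 and KO control 3, 339 and 465 FPKM, still lay above the KO IRI range.

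The NR4A receptors had differences of both signs, and none passed. Nr4a1 (NUR77, a widely used reporter of TCR signalling) lies on chromosome 15 from 101254269 to 101274795, and had 152, 119 and 78.9 FPKM in KO IRI libraries, against 102, 96.1 and 68.5 FPKM in KO controls. It had 71.7, 75.8 and 60.0 FPKM in WT IRI libraries, against 67.6, 50.0 and 47.9 FPKM in WT controls. Injured and control libraries overlapped in both genotypes, with log2 differences of 0.36 ± 0.26 in KO (limma adjusted p = 0.570) and 0.33 ± 0.26 in WT (adjusted p = 0.579). With a common sum the KO difference of Nr4a1 was -0.07, where the median of all tested genes was -0.33. Nr4a3 (NOR1), on chromosome 4 from 48045153 to 48086447, had 73.5, 80.8 and 76.8 FPKM in KO IRI libraries, against 84.0, 71.4 and 54.1 FPKM in KO controls. It had 61.0, 58.5 and 65.0 FPKM in WT IRI libraries, against 54.0, 58.2 and 49.3 FPKM in WT controls. In WT the Nr4a3 libraries were just separate, higher after injury, as were those of 9.28% of tested genes, but the difference of 0.19 ± 0.18 did not pass (adjusted p = 0.648).

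Nr4a2 (NURR1), on chromosome 2 from 57106830 to 57124003, had negative differences. It had 38.0, 32.6 and 13.3 FPKM in KO IRI libraries, against 44.7, 40.4 and 33.0 FPKM in KO controls. It had 22.4, 14.1 and 26.6 FPKM in WT IRI libraries, against 32.1, 31.6 and 60.3 FPKM in WT controls. WT injured libraries all lay below WT controls as deposited, as for 14.4% of tested genes, but not rescaled, and KO groups overlapped through KO IRI 1. The averaged difference of -0.76 ± 0.28 did not pass among all tested genes (adjusted p = 0.129), and passed only in the setting restricted to protein-coding genes (adjusted p = 0.0373), in which 12.4% of genes fell. Within a library, the ratio of Nr4a1 to Nr4a2 was 3.64 to 5.92 in KO IRI against 2.08 to 2.38 in KO controls, and 2.25 to 5.38 in WT IRI against 0.794 to 2.1 in WT controls.

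Among the EGR factors, Egr1 was the abundant one and had the positive difference. Egr1, a general immediate early factor on chromosome 18 from 34859823 to 34864984, had 127, 135 and 98.3 FPKM in KO IRI libraries, against 117, 107 and 64.7 FPKM in KO controls. It had 96.3, 89.9 and 93.6 FPKM in WT IRI libraries, against 71.7, 73.6 and 46.6 FPKM in WT controls. The WT groups were separate, with injured libraries higher, as were those of 9.28% of tested genes, and the KO groups overlapped. The difference was 0.35 ± 0.26 in KO (limma adjusted p = 0.571) and 0.57 ± 0.26 in WT (adjusted p = 0.279). With a common sum the KO difference of Egr1 was -0.08, where the median of all tested genes was -0.33. Averaged over genotype it was 0.46 ± 0.18 and did not pass (adjusted p = 0.156; rescaled 0.0936). With array weights, which give less weight to libraries that stand apart, Egr1 passed averaged over genotype (0.60, adjusted p = 0.0159), as did Nr4a1 (0.49, adjusted p = 0.0396), where 9.71% of all tested genes were called higher, against 3.01% without the weights.

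Egr2 and Egr3, the pair linked to anergy and induction of ubiquitin ligases, were low. Egr2, on chromosome 10 from 67535475 to 67542188, had 5.31, 4.77 and 4.53 FPKM in KO IRI libraries, against 18.7, 7.89 and 2.96 FPKM in KO controls. It had 6.31, 2.40 and 4.20 FPKM in WT IRI libraries, against 3.82, 3.79 and 7.80 FPKM in WT controls. Its control libraries spread over more than its injured ones in KO, and no comparison of Egr2 passed. Egr3, on chromosome 14 from 70077203 to 70082614, had 4.00, 5.29 and 3.71 FPKM in KO IRI libraries, against 11.2, 6.67 and 5.20 FPKM in KO controls. It had 4.62, 4.79 and 4.45 FPKM in WT IRI libraries, against 7.91, 6.93 and 4.76 FPKM in WT controls. The Egr3 groups overlapped in both genotypes through a single pair of close values, and the averaged difference of -0.53 ± 0.18 did not pass (adjusted p = 0.106). It passed with every library set to a common sum (-0.65, adjusted p = 0.0489), where 4.23% of tested genes fell.

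Myc, on chromosome 15 from 61985391 to 61990374, had 17.0, 9.04 and 13.6 FPKM in KO IRI libraries, against 20.8, 7.34 and 15.7 FPKM in KO controls. It had 8.03, 6.58 and 7.05 FPKM in WT IRI libraries, against 11.9, 8.01 and 12.9 FPKM in WT controls. The groups overlapped in both genotypes, in WT by 8.03 FPKM in WT IRI 1 against 8.01 FPKM in WT control 2. The log2 difference was -0.07 ± 0.34 in KO (adjusted p = 0.968; 0.03 rescaled) and -0.52 ± 0.34 in WT (adjusted p = 0.488). Within KO none of the 9 genes passed the limma test after adjustment, while Nfatc1, Egr3 and Irf4 were below 0.05 before it (unadjusted p = 0.0252, 0.0282 and 0.0299), as were 2696 of all tested genes.

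**Figure D2:**
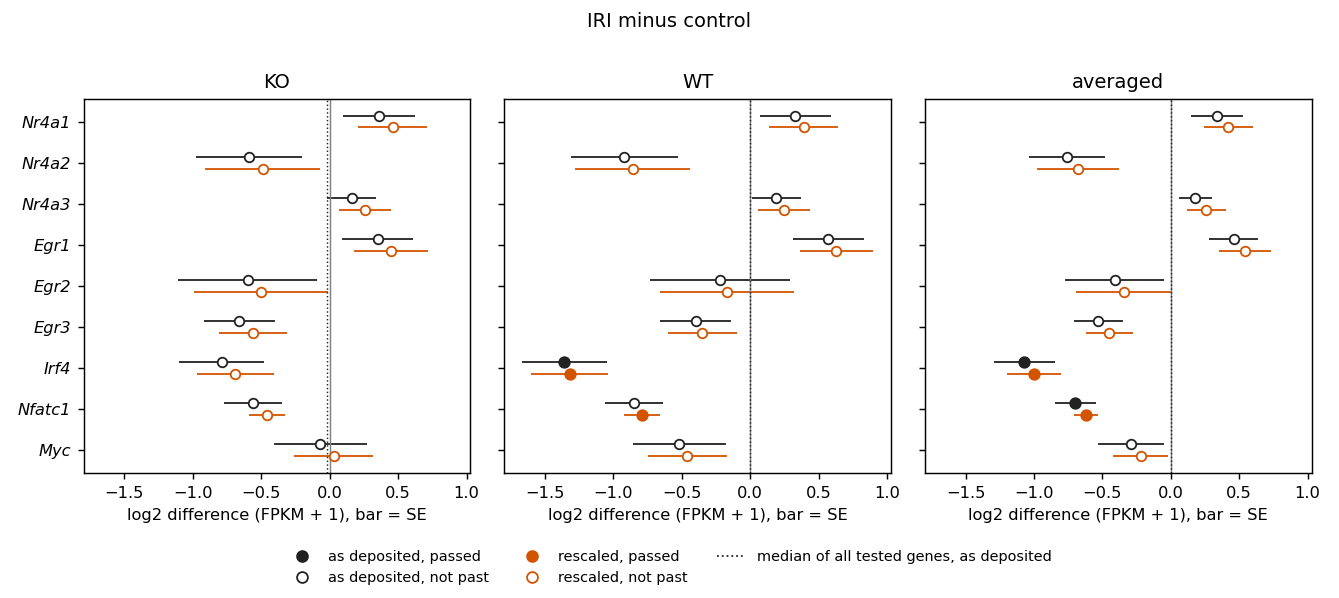
Log2 difference in FPKM + 1, IRI minus control (horizontal axis), for the 9 genes in KO, in WT and averaged over genotype. Points are limma estimates as deposited (black) and rescaled (orange), bars 1 SE, filled points passed an adjusted p of 0.05, and the dotted line is the median of all tested genes. Filled points stand at Irf4 in WT and averaged, and at Nfatc1 averaged and, rescaled only, in WT.

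Ratios within a library do not change when the whole library is scaled, apart from the added 1. Each of 3 log2 ratios was set against injury and against genotype by an exact two-sided permutation test within the other factor, with adjustment over the 6 tests and a smallest possible p of 0.005. Nfatc1 over Nfatc2, another NFAT gene, was 1.02 ± 0.17 in IRI libraries and 0.69 ± 0.14 in controls (SD, n = 6 each), a difference of 0.33 (exact permutation p = 0.005, the smallest possible, adjusted p = 0.03). Every IRI library stood above every control, from 0.82 to 1.24 in IRI libraries against 0.46 to 0.80 in controls. That call was lost, at adjusted p = 0.06, on leaving out WT IRI 2, KO control 1, KO control 2, WT control 2 or WT control 3. Each such test had only 200 label orders, and a lone test could not go below an adjusted p of 0.03. The difference itself stayed between 0.27 and 0.37 on leaving out 1 library. Egr1 over Egr2 was 4.29 ± 0.35 in IRI libraries and 3.42 ± 0.73 in controls, a difference of 0.86 that missed the adjusted threshold (exact permutation p = 0.025, adjusted p = 0.075). Nr4a1 over Nr4a3 was 0.35 ± 0.41 in IRI libraries and 0.18 ± 0.25 in controls (exact permutation p = 0.36, adjusted p = 0.432). Against genotype none of the 3 ratios passed. The KO minus WT difference was 0.35 for Nr4a1 over Nr4a3 (exact permutation p = 0.065, adjusted p = 0.13). It was 0.12 for Nfatc1 over Nfatc2 (exact permutation, adjusted p = 0.3) and 0.05 for Egr1 over Egr2 (adjusted p = 0.85).

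Other ratios between members were taken up after the values were seen and are given without a test. Nr4a1 over Nfatc1 was 1.66 to 2.90 in KO IRI libraries against 0.929 to 1.69 in KO controls, and 1.76 to 2.44 in WT IRI libraries against 0.810 to 1.19 in WT controls. The KO ranges overlapped slightly and the WT ranges did not. Egr1 over Nfatc1 was 2.07 to 3.29 in KO IRI against 0.878 to 1.88 in KO controls, and 2.36 to 3.67 in WT IRI against 0.834 to 1.26 in WT controls. Egr1 over Egr3 was 25.5 to 31.7 in KO IRI against 10.4 to 16.0 in KO controls, and 18.8 to 21 in WT IRI against 9.07 to 10.6 in WT controls. For the 2 ratios with Egr1 every injured library of a genotype stood above every control of it. Each of these ratios sets a gene with a positive injury difference over one with a negative difference, so the choice favoured such separation. No share over other gene pairs is given beside it.

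Set against the summed T cell markers, which were lower in injured libraries, many genes came out higher after injury, and the 3 genes with positive differences were among them. Per 1000 FPKM of T cell markers, Egr1 ran from 79.4 to 124 in KO IRI libraries against 26 to 63.1 in KO controls, and from 153 to 163 in WT IRI libraries against 30.7 to 53.9 in WT controls. Nr4a3 ran from 48.3 to 74.3 in KO IRI libraries against 21.7 to 42.1 in KO controls, and from 96.7 to 113 in WT IRI libraries against 32.6 to 40.6 in WT controls. Nr4a1 ran from 63.7 to 109 in KO IRI libraries against 27.5 to 56.7 in KO controls, and from 104 to 129 in WT IRI libraries against 31.6 to 50.8 in WT controls. All 3, and Nfatc1, were separate in both genotypes on this scale, which moves with its base. On it 43.5% of all tested genes were separate and higher after injury in KO, 63.7% in WT and 37.2% in both, so 4 of the 9 is a share near the background. Myc stood at 8.31 to 11.2 in KO IRI libraries against 4.33 to 8.43 in KO controls, where the ranges overlapped, and at 11.2 to 12.7 in WT IRI libraries against 5.53 to 8.92 in WT controls, which were separate. Egr3 overlapped in KO and was separate in WT, at 7.32 to 8.14 in WT IRI libraries against 3.14 to 5.94 in WT controls.

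**Figure D3:**
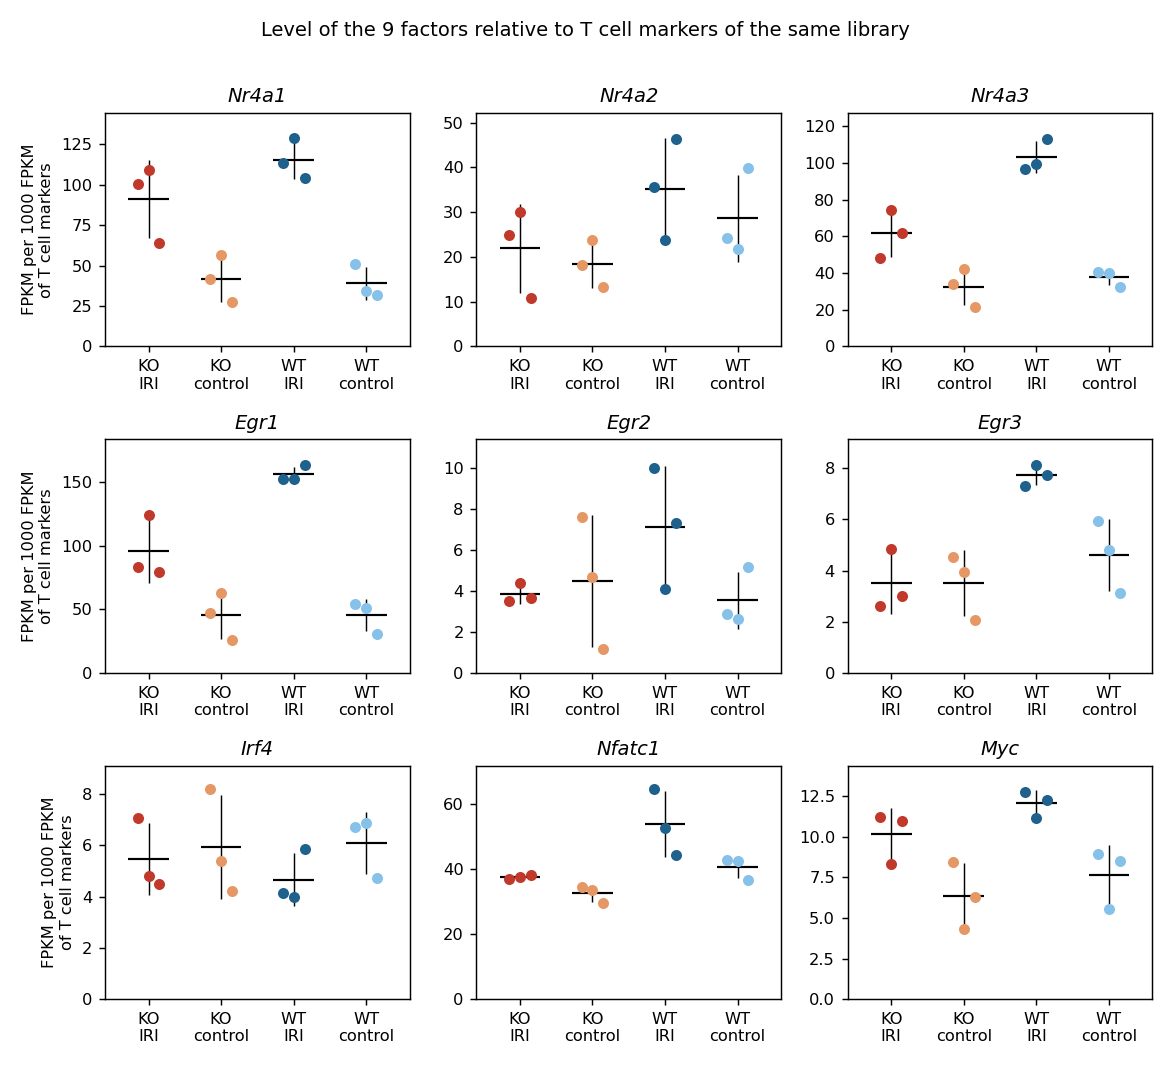
Level of each gene per 1000 FPKM of 10 summed T cell markers of the same library (vertical axis, starting at 0 and differing between panels), by group, with points for libraries, horizontal bars for group means and vertical lines for 1 SD (n = 3). Nr4a1, Nr4a3, Egr1 and Nfatc1 points of injured libraries lie above those of controls in each genotype, whereas Irf4 points overlap.

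Relatives of the 9 genes outside the set gave a reference for the NFAT and IRF families only. No NR4A, EGR or MYC relative was tested. Of 15 paralogs 11 were tested, and averaged over genotype 4 fell with injury and 0 rose, with a median of -0.35. Rescaled, 3 fell and 1 rose, Irf1 (0.41, adjusted p = 0.0298). Nfatc2 fell by 1.03 ± 0.17 on the log2 scale (adjusted p = 0.00442), with 30.2, 19.3 and 20.4 FPKM in KO IRI libraries against 48.4, 32.5 and 42.3 FPKM in KO controls, and 20.5, 12.6 and 14.1 FPKM in WT IRI libraries against 33.8, 41.3 and 40.2 FPKM in WT controls. Injured and control libraries of Nfatc2 were separate in both genotypes, with the injured ones lower, as for 9.15% of tested genes in KO and 14.4% in WT. Nfatc3 had more FPKM than Nfatc1 and Nfatc2 in every library. Its means were 96.3 FPKM in KO IRI libraries against 103 FPKM in KO controls, and 54.0 FPKM in WT IRI libraries against 65.5 FPKM in WT controls. Its difference of -0.21 ± 0.19 did not pass (adjusted p = 0.538). Irf8, an IRF of myeloid and B cells, fell by 1.31 ± 0.19 on the log2 scale (adjusted p = 0.00211), and Irf7 and Irf2 also fell, Irf2 only as deposited (adjusted p = 0.0493; rescaled 0.0963). Egr4 did not reach the filter, with at most 0.592 FPKM in any library, and neither did Mycn, Mycl and Nfatc4.

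The pathways feeding these genes were read from lists of known components. Of 22 tested genes of the calcium and calcineurin branch, 4 fell with injury averaged over genotype (7 rescaled) and 0 rose, with a median of -0.21. Those that fell included the calcium channel Itpr2 (-0.84 ± 0.13), the calmodulin gene Calm3 (-1.28 ± 0.23) and the calcineurin subunit Ppp3cc (-0.73 ± 0.20), with limma adjusted p between 0.00302 and 0.0463. Of 17 genes of the RAS, ERK and serum response branch, 3 fell and 1 rose. Rasgrp1, the exchange factor that opens RAS in T cells, fell by 1.35 ± 0.14 on the log2 scale (adjusted p = 0.000502), with means of 48.9 FPKM in KO IRI libraries against 102 FPKM in KO controls, and 23.5 FPKM in WT IRI libraries against 75.3 FPKM in WT controls. Elk3 and Map2k1 fell too, and Sos1, another RAS exchange factor, rose by 0.46 ± 0.13.

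Genes known from other work to rise with NR4A, EGR2 or EGR3 in tolerant or chronically stimulated T cells were 19, of which 6 rose and 3 fell. Cblb, a ubiquitin ligase that limits TCR signalling, averaged 102 ± 32.6 FPKM in KO IRI libraries against 33.4 ± 4.37 FPKM in KO controls, and 97.9 ± 17.3 FPKM in WT IRI libraries against 24.5 ± 2.97 FPKM in WT controls (SD, n = 3 each; log2 difference 1.74 ± 0.17, adjusted p = 0.000348). The inhibitory receptors Ctla4 (1.49 ± 0.17, adjusted p = 0.00073) and Tigit (1.34 ± 0.17, adjusted p = 0.00127) rose with it. Entpd1, which encodes the ectonucleotidase CD39, fell by 1.25 ± 0.16 on the log2 scale (adjusted p = 0.00127).

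Among activation genes reached through the TCR, more fell than rose. Of 21 tested, 9 fell and 3 rose, with a median of -0.58, and 1 of the 21, Cd5, is also among the T cell markers. The chemokine Xcl1 fell by 3.24 ± 0.20 on the log2 scale (adjusted p = 7.37e-05) and averaged 1.57 ± 0.636 FPKM in KO IRI libraries against 22.4 ± 9.53 FPKM in KO controls, and 2.02 ± 0.594 FPKM in WT IRI libraries against 29.0 ± 2.33 FPKM in WT controls. Tnf (-1.84 ± 0.16), Cd40lg (-1.53 ± 0.11) and Cd44 (-1.13 ± 0.15) also fell, with adjusted p between 0.000102 and 0.00131. AP-1 and other early genes had positive differences in 18 of 18, and 3 of them rose, Fosl2 (1.14 ± 0.16), Zfp36 (1.09 ± 0.18) and Ier3 (1.51 ± 0.30). Rescaled, 10 of the 18 rose and 0 fell, where 6.35% of all tested genes rose. Over the same libraries 4 of 6 CD8 T and NK cell markers fell and 4 of 8 neutrophil markers rose, as given above, and their part in both lists was not tested.

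In lists downstream of IRF4 and MYC few genes passed. Of 14 tested partners and targets of IRF4, Gata3 fell (-0.74 ± 0.17, adjusted p = 0.0206) and no other passed, with a median of 0.29, and rescaled 4 rose and 2 fell. Among 9 MYC dimer partners and opponents, Mxd1, which competes with MYC for MAX, rose by 1.00 ± 0.12 (adjusted p = 0.00084), and rescaled 3 of the 9 rose and 1 fell. Of 24 MYC targets in ribosome making and growth, Cdk4 fell (-1.01 ± 0.19, adjusted p = 0.00977) and Tfrc, the transferrin receptor, rose (0.85 ± 0.23, adjusted p = 0.0431), with a median of -0.23. Counts as deposited stand beside 3.01% of tested genes that rose and 6.03% that fell. Rescaled counts stand beside 6.35% that rose and 7.33% that fell.

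**Figure D4:**
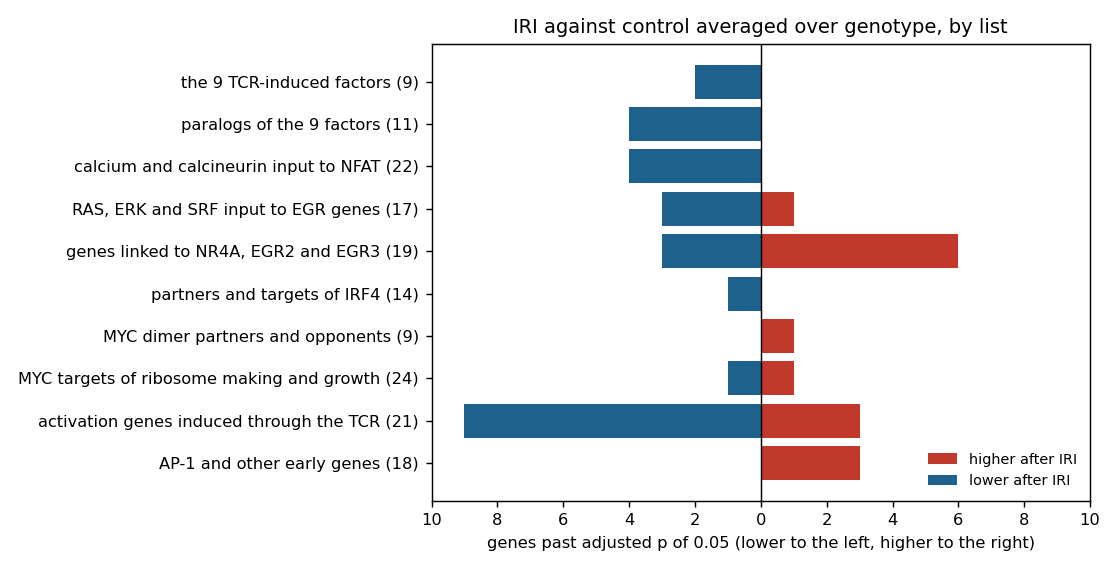
Number of genes of each list past an adjusted p of 0.05, IRI against control averaged over genotype (horizontal axis, lower to the left and higher to the right), with the number tested in parentheses after each list's name. Activation genes have 9 that fell and 3 that rose, and the NR4A and EGR-linked list 6 that rose and 3 that fell.

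Between genotypes, Nr4a1 and Irf4 were higher in KO libraries as deposited, and neither passed after rescaling. Averaged over condition, the log2 difference of Nr4a1 was 0.69 ± 0.19 (adjusted p = 0.0401) and that of Irf4 was 0.78 ± 0.22 (adjusted p = 0.0454). All 9 genes had positive differences, but so did most others: the median was 0.43 for the 9 and 0.29 for all tested genes, and 11.9% of all tested genes were called higher. Rescaled, the differences were 0.37 ± 0.18 for Nr4a1 (adjusted p = 0.262) and 0.50 ± 0.20 for Irf4 (adjusted p = 0.188), 7 of 9 were positive (Nr4a2 -0.16 and Egr3 -0.23), and 0 of 9 were called, beside 0.55% of tested genes called in either direction. The Nr4a1 call held in 2 of 12 fits that left out 1 library, those without KO IRI 3 or KO control 2. That of Irf4 held only without KO control 2, a fit in which Nfatc1 (0.51, adjusted p = 0.027) and Myc (0.73, adjusted p = 0.0204) also passed and 25.5% of tested genes were called higher.

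With quantile normalization or a common sum, Nr4a2, Nr4a3, Egr1, Egr3 and Nfatc1 had negative differences, between -0.33 and -0.01, Nr4a1, Irf4 and Myc had positive ones, and Egr2 had 0.22 with quantile normalization and 0.0 with a common sum.

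T cell markers also were higher in KO, 9 of 10 as deposited and 3 of 10 rescaled. Per 1000 FPKM of those markers, Nr4a1 was 63.7 to 109 in KO IRI libraries against 104 to 129 in WT IRI libraries, and 27.5 to 56.7 in KO controls against 31.6 to 50.8 in WT controls. The KO and WT ranges overlapped in both conditions on that scale. Irf4 stood at 4.51 to 7.08 in KO IRI libraries against 3.99 to 5.85 in WT IRI libraries and at 4.24 to 8.2 in KO controls against 4.72 to 6.89 in WT controls, and overlapped as well. The B cell and dendritic cell marker sums given above were also higher in every KO control than in every WT control. The part of these markers in the differences was not tested.

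Within each condition no member was called between genotypes by limma. After injury the libraries of Irf4, Nfatc1, Myc, Nr4a1, Nr4a3 and Egr1 were separate and higher in KO as deposited, a pattern that 24.9% of tested genes shared, and after rescaling only those of Irf4 were, as were those of 11.8% of tested genes. The Irf4 difference was 1.06 ± 0.31 (adjusted p = 0.119; rescaled 0.82 ± 0.28, adjusted p = 0.226), in a comparison in which 0.057% of tested genes were called. At an unadjusted p under 0.05, 4324 of the 19288 tested genes passed there, and Irf4 (unadjusted p = 0.00638), Nr4a1 (0.0219) and Nfatc1 (0.0229) were among them. In controls only Nr4a1 was separate, higher in KO as deposited (0.67 ± 0.26, adjusted p = 0.210), as were 20.1% of tested genes. There 0.0259% of tested genes were called, and at an unadjusted p under 0.05 Nr4a1 was the only member (unadjusted p = 0.0264) among 4022 genes. Rescaled differences in controls ran from -0.34 for Nr4a2 to 0.34 for Nr4a1.

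No member's response to injury differed between genotypes in the test of that difference. All 9 adjusted p were 0.999, with 0.00518% of tested genes called, and at an unadjusted p under 0.05 none of the 9 passed, against 646 of all tested genes. Estimates ran from -0.38 ± 0.71 for Egr2 to 0.57 ± 0.44 for Irf4.

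**Figure D5:**
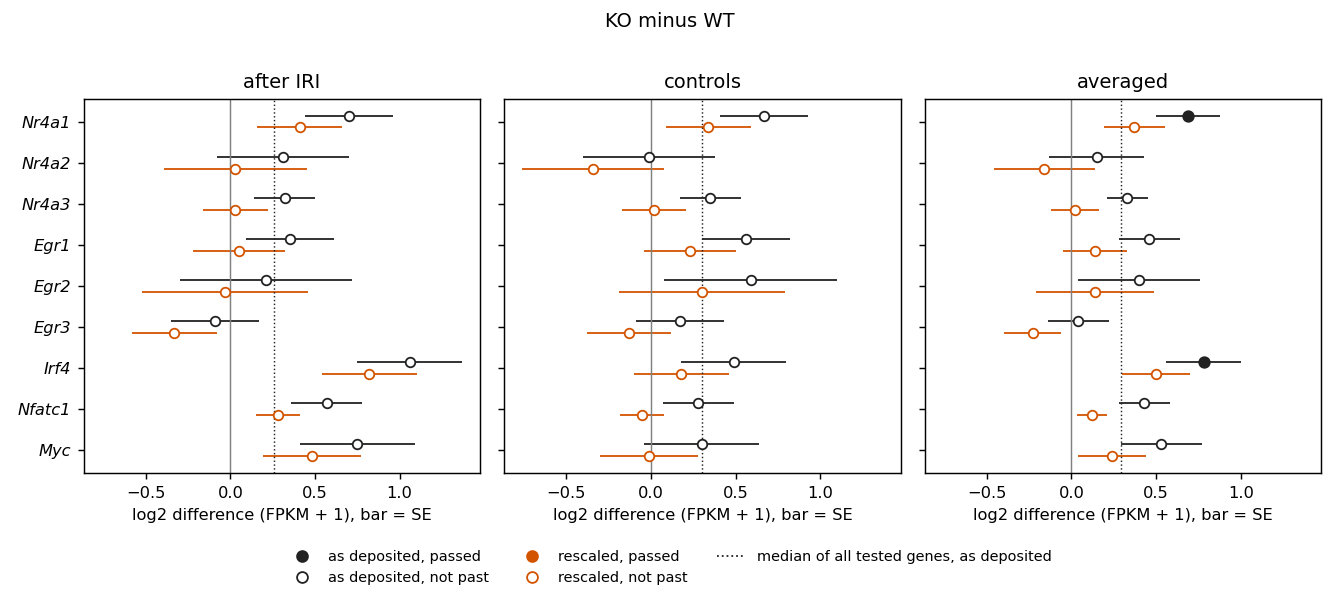
Log2 difference in FPKM + 1, KO minus WT (horizontal axis), for the 9 genes after IRI, in controls and averaged over condition, drawn as for the injury comparison. Filled points stand only at Nr4a1 and Irf4 averaged and as deposited, and the dotted median of all tested genes lies at 0.26 to 0.30.

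Across the 12 libraries, rescaled log2 values of the 9 genes were positively correlated in some pairs, negatively in others and near 0 in several. These correlations share libraries, groups and the marker differences above and are given as descriptions. Egr1 went with Nr4a3 (Pearson r = 0.88) and Nr4a1 (r = 0.80), and Irf4 went with Nfatc1 (r = 0.88), whereas Egr1 and Nfatc1 ran against each other (r = -0.63). Nr4a1 stood near 0 with Irf4 (r = -0.10), Nr4a2 (r = -0.09) and Egr2 (r = 0.06). Of 11621 protein-coding genes searched, those most like Nfatc1 were Sipa1 and Il12rb1 (r = 0.97) and Nfatc2 (r = 0.96), and those most like Irf4 were Dennd1c (0.97), Rgs14 (0.96) and Acap1 (0.95). Egr1 was most like Gla and Arl5b (0.89), Nr4a1 like Rrad, Susd1 and Cxcr4 (0.86), and Nr4a3 like Egr1, Plk4 (0.86) and Gla (0.85). Nr4a2 was most like Ezh2 (0.93), Mrpl51 and Klhl26 (0.91), Egr2 like Mxd3 (0.90), Anapc10 (0.80) and Smyd2 (0.79), Egr3 like Mcm5, B3galt2 and Tyms (0.86), and Myc like Gatad2a and Sirt6 (0.90).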

How the data were processed

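RNA of kidney CD4 T cells, isolated with a Percoll gradient and a flow sort, was sequenced in 12 libraries prepared from 1 ng of total RNA with a stranded kit, per the labels' protocols. The deposited table holds FPKM per gene and library, per the file headers; Cufflinks 2.2.1, TopHat2 2.1.0, Partek 7.0, bcl2fastq 2.17.1.14 and build GRCm38 are listed in the submitters' processing notes, and the role of each, the annotation and the strand setting are not given in the sources used here. Low values showed no whole-read steps, so depth is unknown and no counting interval is given.

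Symbols and GRCm38 coordinates came from GENCODE M21 (52399 of 52632 gene IDs matched), and promoters from RefSeq. Genes whose mean reached 1 FPKM were tested on log2(FPKM + 1) with limma 3.58.1 in R 4.3.3 (lmFit, contrasts.fit, eBayes with trend), 1 mean per group, all 12 libraries in 1 fit, in 7 comparisons, with Benjamini-Hochberg adjustment over all tested genes of a comparison and a threshold of 0.05. The fit was tested on simulated data. Rescaling used median ratios over 16018 tested genes above 0 in all libraries. Of each pathway list, up to 4 called genes may be named, in order of adjusted p, Nfatc2, Nfatc3, Egr4 and Irf8 always, and per member the 3 genes with the highest correlation; Irf7, Irf2, Elk3 and Map2k1 come under the same rule. Some genes that this rule names are not reported here. The 9 members and all lists were chosen with earlier results of these data known. Alternatives were scaling, pseudocount, filter, gene type, variance trend, array weights, a replicate block and leaving out libraries. All libraries carry 1 shared date in the table.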

Additional observations from a re-analysis of the deposited data

How the results depend on the processing

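Over 24 alternatives, the 63 differences of the 9 genes kept their direction wherever either value passed. Irf4 passed averaged over genotype in all 24, and Nfatc1 in 23. For IRI against control in WT, 1 gene was called, beside 3.78% of all tested genes. When rescaled (7.94% of all genes called), with quantile normalization (9.16%), a mean of at least 5 FPKM (7.81%), protein-coding genes only (9.69%) or array weights (11.6%), 2 genes passed. With a common sum (0.56%), a pseudocount of 5 (3.08%), no filter (0.853%) or no trend (3.02%), 0 passed. The same held without 3 libraries that an earlier analysis found to stand apart, KO control 1, WT IRI 3 and WT control 3 (1.16%). Leaving out 1 library gave 0 to 2, with 1.32% to 4.75% of all genes called. For KO against WT averaged over condition, 2 were called, beside 13.7% of all tested genes. When rescaled (0.55%), with quantile normalization (0.28%), a common sum (0.0674%), no filter (0.444%), no trend (8.4%) or without those 3 libraries (0.28%), 0 passed. With a pseudocount of 5, 1 passed (13.2%), and 3 did with a mean of at least 5 FPKM, protein-coding genes only or array weights (34.2%, 34.7% and 38.0% of the genes tested in those settings were called). Leaving out 1 library gave 0 to 4, and 4 without KO control 2, where 30.6% of all genes were called. Array weights gave 2 for IRI in KO (14.3% of all genes called), 1 for KO against WT after IRI (4.24%) and 4 for averaged IRI (23.9%). Averaged IRI (2 called) had 3 with a common sum (5.26%) or protein-coding genes only (18.3%) and 1 without the 3 libraries. Egr1 over Egr2 differed with injury by 0.72 with a pseudocount of 5 (exact permutation, adjusted p = 0.015) and by 0.61 to 1.02 on leaving out 1 library. Nfatc1 over Nfatc2 differed by 0.34 without the 3 libraries (adjusted p = 0.2), where a lone test could not go below an adjusted p of 0.1, and by 0.27 to 0.37 on leaving out 1. Nr4a1 over Nr4a3 had a genotype difference of 0.35 that did not pass (exact permutation, adjusted p = 0.13). It ran from 0.23 to 0.48 on leaving out 1 library, and passed in 1 of 12 such fits, that without KO IRI 3. The causes were not tested. With the replicate number as a block, 1, 0, 0, 0, 0, 2 and 2 genes were called in the 7 comparisons, as without it. Of 18 same-number pairs, 1 correlated above 0.1 (-0.0371 to 0.202), though 7 of 12 libraries were likest to their own number. The numbers were not taken as pairs, and these values do not settle whether they are. Depth is unknown and limits low genes such as Egr2 and Egr3.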
